A study of Mus musculus with 10 samples.

Results

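Tumours of TH-MYCN mice taken after 5 days of a drug combination were compared with tumours taken after 24 h of the same combination. The comparison used every library of these 2 groups, 7 of the 10 samples in the series, with 4 libraries at 5 days (replicates 1 to 4) and 3 at 24 h (replicates 2, 3 and 4). Each result is also given for 6 libraries, without 5-day library 1. TH-MYCN mice carry a human MYCN transgene under a tyrosine hydroxylase promoter and form neuroblastoma in the sympathetic nervous system, and all groups, the 3 untreated samples included, are tumours of this strain. The drugs were MLN8237 (alisertib), which inhibits the kinase Aurora-A, and AZD6738 (ceralasertib), which inhibits the kinase ATR. Titles of the samples speak of combined treatment, but the design text puts "or" between the drug names. The sources used here do not give doses, schedule or the age of the animals. Both groups were treated, so the comparison asks how tumours after longer treatment differed from tumours early in treatment, and the untreated values are given as background. The labels do not state that each library is a different animal, and the p-values therefore measure only the spread between these libraries.

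Aurora-A drives mitotic entry and spindle assembly, and it also binds and stabilises the MYCN protein in neuroblastoma. ATR is the kinase that senses stalled replication forks and, through CHK1, holds back the cell cycle until they are resolved. Damage that is not resolved can engage p53, whose targets arrest the cycle or prepare cell death. Neuroblastoma cells carry the programme of the sympathetic lineage, in which HAND2 and GATA3 are among the transcription factors and noradrenaline is the product.

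The 7 libraries held 5576926 to 5696436 counts per library, a range of 2.1%, with 19790 to 21264 genes detected. Values are CPM (counts scaled to a common library size, here adjusted with TMM), and 3 counts, the limit taken for a gene at 0, correspond to 0.512 to 0.653 CPM. Such limits cover counting error only. Library 1 at 5 days stood apart from the rest. Across genes, its Spearman correlation with the other 6 libraries averaged 0.74, where the others averaged 0.926 to 0.941, and on the first principal component (78.1% of variance) it lay at 153.7, against -60.3 to 7.5. Its macrophage markers summed to 15460 CPM against 1355 to 1689 CPM at 24 h, and its adrenergic transcription factors to 1007 CPM against 3212 to 3755 CPM. Its Y-linked genes summed to 7.40 CPM, against 177 to 194 CPM at 24 h and 133 to 205 CPM in 5-day libraries 2 to 4. Untreated library 2 was low too, at 3.81 CPM. The part of this difference in the other values of library 1 was not tested. In the 6 remaining libraries the first component (42.6% of variance) did not separate the groups, with 24 h libraries 2, 3 and 4 at -24.7, 23.7 and 10.3 and 5-day libraries 2, 3 and 4 at 36, 0.7 and -46. In bulk tissue, fewer cells of a type and less RNA per cell cannot be told apart.

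No gene passed the test between 5 days and 24 h. With 7 libraries, 0 of 14658 tested genes (0%) had a Benjamini-Hochberg adjusted p under 0.05 in edgeR's quasi-likelihood test, and the smallest adjusted p was 0.76. Without adjustment, 407 genes had p under 0.05, of which 224 were higher and 183 lower at 5 days. With 6 libraries, 0 of 14387 genes (0%) passed, the smallest adjusted p was 0.72, and 982 genes had an unadjusted p under 0.05, 487 higher and 495 lower. The biological coefficient of variation was 45.6% with 7 libraries and 19.4% with 6. DESeq2 called 1 gene with 7 libraries (Gm21887, lower) and 7 with 6 libraries, of which Dcx was higher and Stag3, Gm21887, Gm47283, Mirg, Celf4 and Gm26917 were lower. In edgeR without a filter on low counts, Gm21887 and Mirg were lower with 6 libraries.

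Groups that do not overlap are the base rate against which the genes below are read. With 7 libraries, 3.33% of tested genes had every 5-day library above every 24 h library and 4.37% had every one below. With 6 libraries these shares were 5.28% and 6.70%. The sign of the fold change differed between the fits for 4055 of 14387 genes (28.2%). The plot of both fits shows this spread, with many genes near 0 without library 1 and well above 0 with it.

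**Figure D1:**
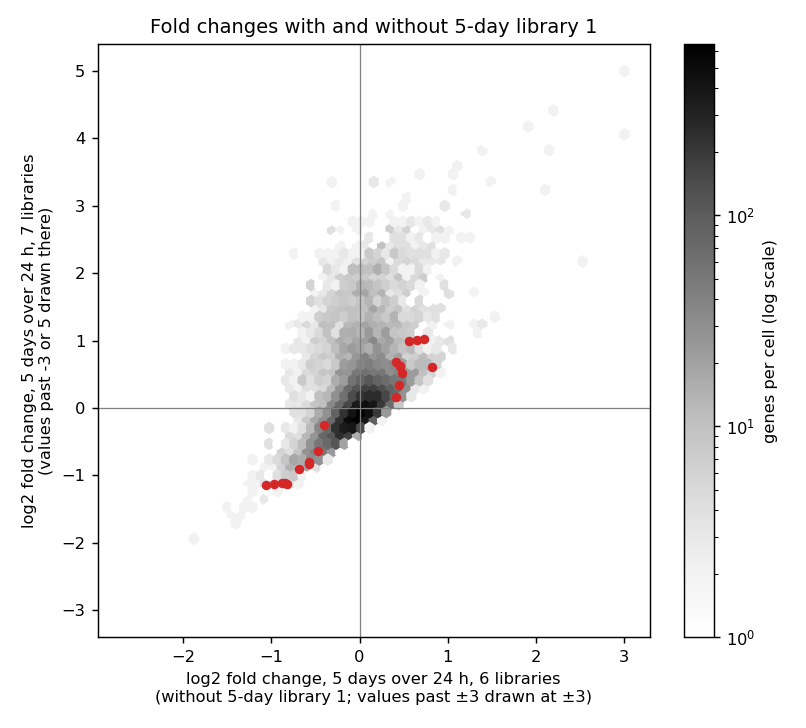
Log2 fold change at 5 days over 24 h for 14387 genes tested in both fits, without 5-day library 1 (horizontal) and with it (vertical), grey by number of genes, and the 20 genes of smallest unadjusted p in red. The red genes were chosen among those without overlap between the groups in the 6 libraries. For 28.2% of genes the sign differed between the fits, and the red genes had 1 sign in both.

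The genes named next, on the higher and the lower side, were chosen among those whose groups did not overlap in the 6 libraries. That separation was therefore set by the choice and is not a result. Among the 10 genes of smallest unadjusted p on the higher side without library 1, there were a corepressor of nuclear receptors, a kinase and a sestrin, and none passed (adjusted p = 0.72 for each, edgeR quasi-likelihood, 6 libraries). Nrip1, a corepressor of nuclear receptors also called RIP140, was at 42.9, 46.4 and 41.6 CPM in 5-day libraries 2 to 4 and 81.9 CPM in library 1, against 27.6, 23.1 and 27.9 CPM at 24 h. Untreated tumours held 28.3 to 30.8 CPM, so the 24 h libraries were just below the untreated ones and all 4 libraries at 5 days above both. Its log2 fold change was 0.73 ± 0.12 (SE) with 6 libraries and 1.02 ± 0.28 with 7. The gene (ENSMUSG00000048490) is on chromosome 16 of mm10 (76287400 to 76373827, minus strand).

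Hipk3, a kinase that binds homeodomain proteins, was at 86.4, 82.3 and 78.9 CPM in libraries 2 to 4 and 198 CPM in library 1, against 60.9, 50.1 and 56.6 CPM at 24 h. Sesn3, a sestrin of the stress response that restrains mTORC1, was at 67.6, 73.4 and 76.8 CPM and, in library 1, 77.7 CPM, against 51.5, 53.6 and 49.8 CPM. For Sesn3 library 1 lay close to the other 5-day libraries, which was not so for Hipk3. Erbin, a scaffold that binds the receptor ERBB2, was at 98.7, 106 and 102 CPM and 186 CPM in library 1, against 75.1 to 79.7 CPM at 24 h. Slc23a2, a vitamin C transporter, was at 51.2 to 57.0 CPM and 78.2 CPM in library 1, against 36.9 to 41.4 CPM. Fbxo32, the ubiquitin ligase subunit atrogin-1, was at 28.5 to 37.0 CPM and 71.0 CPM in library 1, against 19.7 to 22.7 CPM. Fam210a, a mitochondrial protein gene, was at 57.9 to 66.9 CPM and 92.3 CPM in library 1, against 42.5 to 50.8 CPM. In these 7 genes, Nrip1 included, library 1 stood on the same side as the other 5-day libraries.

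The other 3 genes of the higher side went the other way or overlapped in library 1. Dcx, which encodes the microtubule protein doublecortin of young neurons, was at 285, 284 and 316 CPM in libraries 2 to 4 against 219, 223 and 219 CPM at 24 h, a log2 fold change of 0.42 ± 0.08 (SE). DESeq2 called it (adjusted p = 0.0164, 6 libraries). Library 1 held 99.3 CPM and untreated tumours 226 to 311 CPM, so libraries 2 and 3 lay within the untreated range, library 4 above it and library 1 below it. Ankrd50, of endosomal recycling, was at 105, 115 and 127 CPM against 77.5 to 90.7 CPM, with 82.7 CPM in library 1. Srl, a calcium-binding protein of the muscle reticulum, was at 52.3, 39.3 and 53.01 CPM against 22.9 to 32.5 CPM, with 20.7 CPM in library 1. Its highest values were in libraries 2 and 4, the libraries in which skeletal muscle markers summed to 870 and 294 CPM. The part of muscle RNA in the Srl values was not tested.

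On the lower side, the 10 genes of smallest unadjusted p included a meiotic cohesin subunit, a sympathetic transcription factor, long non-coding RNAs and neuronal genes, and none passed in edgeR (adjusted p = 0.72 for each, 6 libraries). Stag3, a cohesin subunit of meiosis (ENSMUSG00000036928, chromosome 5), was at 14.4, 19.1 and 17.1 CPM in libraries 2 to 4 and 9.58 CPM in library 1, against 32.3, 30.9 and 35.6 CPM at 24 h. Library 1 was also below the lowest 24 h library, and untreated tumours were at 14.9 to 25.6 CPM. The log2 fold change was -0.97 ± 0.15 (SE) with 6 libraries and -1.13 ± 0.25 with 7, and DESeq2 gave an adjusted p = 0.0168 with 6. Prkcsh, the β subunit of the sugar-trimming enzyme glucosidase II, was at 83.3, 84.9 and 89.6 CPM against 115, 108 and 117 CPM. Library 1 was at 122 CPM for Prkcsh and so stood above the 24 h libraries.

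The promoters of Stag3 and Prkcsh are shown because, of the 20 genes, these are the ones whose upstream sequence holds CACGTG, the E-box letters bound by MYC and MAX proteins. The search covered the 250 bases before each RefSeq start (GRCm38.p6) on both strands, which are the same for this palindrome. Of the 20 genes, 12 had a start in the table, 7 of the higher and 5 of the lower side, and 0 and 2 of them held the motif. Among all 32851 starts, 6.02% held it. A match is a description of letters and not a bound site. The Stag3 window is chr5:138280259-138280508 and the Prkcsh window chr9:22002738-22002987, both on the plus strand, printed 5′ to 3′ with the motif in capitals. The motif ends 164 bases before the RefSeq start of Stag3 and 216 bases before that of Prkcsh. In GENCODE M21 Stag3 starts at 138280240 and Prkcsh at 22002806. All of the Stag3 window and part of the Prkcsh window thus lie inside the genes as GENCODE draws them.
Stag3: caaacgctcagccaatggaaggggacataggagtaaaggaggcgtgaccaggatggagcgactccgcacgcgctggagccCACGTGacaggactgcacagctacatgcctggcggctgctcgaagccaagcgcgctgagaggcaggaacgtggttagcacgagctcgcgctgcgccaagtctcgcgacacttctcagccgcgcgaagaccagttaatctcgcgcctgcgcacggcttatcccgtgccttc
Prkcsh: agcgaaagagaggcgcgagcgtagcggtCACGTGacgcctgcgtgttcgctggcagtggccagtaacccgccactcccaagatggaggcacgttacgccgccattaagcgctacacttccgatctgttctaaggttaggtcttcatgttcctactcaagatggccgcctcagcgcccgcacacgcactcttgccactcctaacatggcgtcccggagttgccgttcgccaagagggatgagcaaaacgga

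Gm21887, a gene near the end of the X chromosome (ENSMUSG00000095562, X, 170009659 to 170019281, plus strand), was at 65.5, 76.0 and 51.3 CPM in libraries 2 to 4 and 49.0 CPM in library 1, against 114, 136 and 149 CPM at 24 h. Library 1 too was below every 24 h library, and untreated tumours, at 66.4 to 106 CPM, overlapped the 5-day range and lay below the 24 h range. The log2 fold change was -1.05 ± 0.17 (SE) with 6 libraries and -1.14 ± 0.20 with 7. DESeq2 called it in both (adjusted p = 3.35e-05 and 0.00674). Gm47283, picked once its values were known, lies on the Y chromosome and followed the same order, at 63.9 to 97.3 CPM in libraries 2 to 4 and 60.5 CPM in library 1 against 124 to 178 CPM at 24 h. Library 1 held 7.40 CPM over 4 other Y-linked genes, against 133 to 205 CPM in the other 5-day libraries, yet it held 60.5 CPM of Gm47283. Reads of Gm21887 and Gm47283 may be shared between copies on X and Y, so their separate values are uncertain.

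Mirg, a long non-coding RNA that hosts microRNAs in the imprinted Dlk1-Dio3 region, was at 70.6, 54.1 and 48.4 CPM in libraries 2 to 4 and 22.6 CPM in library 1, against 98.6, 113 and 107 CPM at 24 h. Its log2 fold change was -0.88 ± 0.15 (SE), and untreated tumours held 58.4 to 105 CPM, which overlaps both groups. Mir17hg, the host transcript of a microRNA cluster under MYC control, picked once its values were known, was at 16.8 to 19.6 CPM and 6.75 CPM in library 1, against 26.4 to 33.5 CPM. Gm26917, another long non-coding RNA (chromosome 17, 39843013 to 39846341, plus strand), was at 649 to 727 CPM and 393 CPM in library 1, against 868 to 1005 CPM. Celf4, a neuronal RNA-binding protein gene, was at 116, 115 and 119 CPM and 49.0 CPM in library 1, against 153, 188 and 180 CPM. Csmd3, a large membrane protein gene of the brain, was at 16.3 to 25.6 CPM and 6.75 CPM in library 1, against 33.9 to 39.6 CPM. Cux2, a homeobox factor of neurons, was at 16.4 to 20.96 CPM and 3.70 CPM in library 1, against 27.2 to 39.4 CPM. Pcyox1l, which resembles prenylcysteine oxidase, was at 23.6 to 31.0 CPM and 10.9 CPM in library 1, against 39.4 to 46.3 CPM.

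**Figure D2:**
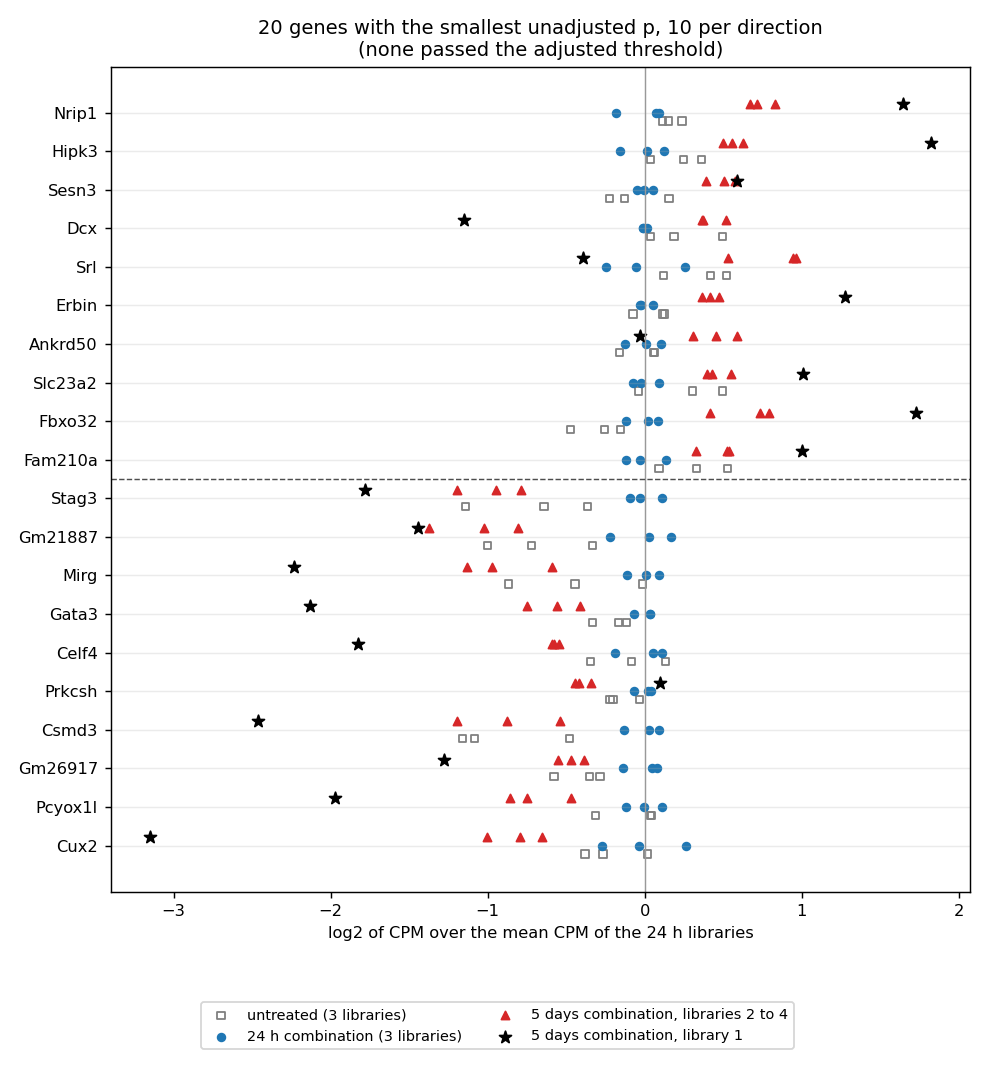
Log2 of each library's CPM over the mean CPM of the 3 libraries at 24 h, for the 20 genes of smallest unadjusted p, 10 per direction; circles are 24 h libraries, triangles 5-day libraries 2 to 4, stars 5-day library 1 and open squares untreated libraries. The genes were chosen among those in which circles and triangles do not overlap. The stars lie on the side of the triangles except for Dcx, Srl and Ankrd50 above the dashed line and Prkcsh below it, and no gene passed the adjusted threshold.

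Neither the drug targets nor the oncogene passed, and their groups overlapped. Aurka, which encodes Aurora-A, was at 203, 168 and 183 CPM in 5-day libraries 2 to 4 and 57.9 CPM in library 1, against 194, 172 and 224 CPM at 24 h and 122 to 139 CPM untreated. The 24 h libraries and 5-day libraries 2 to 4 overlapped and stood above the untreated range, and library 1 stood below it. The log2 fold change between 5 days and 24 h was -0.09 ± 0.12 (SE) with 6 libraries and -0.36 ± 0.40 with 7. Atr was at 51.3, 56.0 and 57.6 CPM and 27.2 CPM in library 1, against 53.6, 37.6 and 45.3 CPM. Its log2 fold change was 0.27 ± 0.13 with 6 libraries and 0.08 ± 0.28 with 7. Chek1, the kinase below ATR, was at 37.5, 44.4 and 45.8 CPM and 18.3 CPM in library 1, against 52.2, 50.6 and 41.3 CPM. Mycn was at 93.6, 95.4 and 104 CPM and 21.6 CPM in library 1, against 105, 87.7 and 82.9 CPM. Transgene reads that aligned to mouse Mycn are part of these values. The log2 fold change of Mycn was 0.09 ± 0.10 with 6 libraries and -0.22 ± 0.49 with 7, so its sign depended on library 1.

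Most mitotic genes were lower at 5 days by a small margin, and without library 1 the list sums of the groups overlapped. Of 47 tested genes of mitosis and G2/M, 38 were lower and 9 higher with 6 libraries, 0 passed, and the median log2 fold change was -0.09, beside -0.002 over all tested genes. Over all tested genes, 49.7% were higher in that fit. Of the 47 mitotic genes, 4 did not overlap and were lower (Cdc25b, Cdca8, Cep55 and Ckap2), 8.51% of the list, near the 6.70% of all genes. Cep55, a protein of the last step of cell division, was at 66.2, 55.8 and 62.2 CPM in libraries 2 to 4 and 26.1 CPM in library 1, against 82.1, 75.2 and 80.1 CPM at 24 h. Untreated tumours held 42.9 to 48.9 CPM of Cep55, below each of these 6 libraries. Its log2 fold change between 5 days and 24 h was -0.37 ± 0.10 (SE). Cdc25b, the phosphatase that starts mitosis, picked once its values were known, was at 59.2 to 73.3 CPM and 43.3 CPM in library 1, against 74.0 to 77.1 CPM. Mki67, the proliferation marker, was at 850 to 938 CPM in libraries 2 to 4 and 884 to 969 CPM at 24 h, and at 344 CPM in library 1. With library 1, 47 of 47 mitotic genes were lower (median -0.35, all genes 0.03), and the list summed to 3205 CPM there against 8534 to 9636 CPM in libraries 2 to 4. The sums at 24 h were 9963, 8691 and 9976 CPM, which overlapped those of libraries 2 to 4. The median with 6 libraries was -0.06 without 24 h library 4 and -0.14 without 24 h library 3.

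The sign of the replication list depended on the libraries used. Of 41 tested genes of DNA replication and G1/S, 27 were higher and 14 lower with 6 libraries, with a median of 0.03. The median was -0.04 without 5-day library 4, and with library 1 included 40 of 41 were lower (median -0.17). Prim2, the large primase subunit, was at 45.5, 46.3 and 56.0 CPM in libraries 2 to 4 and 23.3 CPM in library 1, against 44.7, 37.3 and 40.1 CPM. Rfc2, of the clamp loader, was at 114, 118 and 125 CPM and 82.3 CPM in library 1, against 132, 141 and 147 CPM. In the ATR, Fanconi and homologous recombination list 17 of 37 tested genes were higher and 20 lower with 6 libraries (median -0.02), and 28 of 37 were lower with 7 (median -0.20). Without overlap, 2 were higher and 2 lower with 6 libraries, 5.41% of the list each, near the shares over all genes. Etaa1, an activator of ATR, was at 29.8, 32.3 and 38.2 CPM and 19.8 CPM in library 1, against 28.8, 27.0 and 24.0 CPM. Rad9a, part of the clamp that recruits another ATR activator, was at 25.3, 25.4 and 22.9 CPM and 26.3 CPM in library 1, against 28.9, 30.3 and 37.4 CPM. Neither gene passed, and with library 1 the groups of Etaa1 overlapped.

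Replication-dependent histones were lower in 13 of 19 tested genes with 6 libraries (median -0.15), and in 12 of 21 with 7 (median -0.22). With 6 libraries 6 of them, all H2A genes, did not overlap, 31.6% of the list beside 6.70% of all genes. Hist1h2ah was at 25.5, 24.4 and 30.8 CPM in libraries 2 to 4 and 13.3 CPM in library 1, against 36.8, 34.7 and 38.9 CPM at 24 h. Hist1h2ao was at 83.1, 82.5 and 86.8 CPM and 40.9 CPM in library 1, against 109, 91.2 and 109 CPM. Hist1h2ad was at 31.8 to 35.6 CPM and 12.8 CPM in library 1, against 39.3 to 40.7 CPM. These genes have near-identical copies, so reads may be split between them, and the 6 genes do not count as separate observations. Without a filter on low counts the median was -0.01, and without 24 h library 4 it was -0.04. Histone transcripts of this class mostly lack a poly(A) tail, and the libraries were made from polyadenylated RNA.

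p53 targets were lower in 19 of 23 tested genes with 6 libraries and higher in 18 of 25 with 7. The medians were -0.13 and 0.14, and 0 members passed in either fit. Cdkn1a, which encodes the CDK inhibitor p21, was at 50.5, 27.0 and 23.1 CPM in libraries 2 to 4 and 186 CPM in library 1, against 32.9, 39.2 and 69.0 CPM at 24 h and 10.1 to 26.9 CPM untreated. Its groups overlapped, and its log2 fold change was -0.49 ± 0.41 (SE) with 6 libraries and 0.61 ± 0.78 with 7. Sesn2, another stress-induced target, was at 24.1, 9.05 and 20.3 CPM and 48.1 CPM in library 1, against 26.7, 19.1 and 28.2 CPM at 24 h and 6.06 to 6.95 CPM untreated. Each treated library stood above the untreated ones for Sesn2. Bax, which permeabilises mitochondria in cell death, was at 78.7, 71.7 and 78.7 CPM and 83.6 CPM in library 1, against 85.7, 107 and 98.9 CPM at 24 h. All 4 libraries at 5 days were below the 24 h range for Bax and 3 of them within the untreated range of 78.0 to 89.6 CPM. Mdm2, the inhibitor of p53, picked once its values were known, was at 109, 102 and 109 CPM against 111, 115 and 115 CPM, with 144 CPM in library 1. Xpc, a damage-recognition protein of excision repair, was at 40.9, 41.8 and 44.0 CPM and 36.1 CPM in library 1, against 38.0, 34.0 and 34.1 CPM. Without 24 h library 4, which held the highest Cdkn1a at 24 h, the 6-library median was -0.08, without 24 h library 3 it was -0.19, and without 5-day libraries 2, 3 or 4 it was -0.21, -0.06 and -0.08.

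Genes of fatty acid synthesis were higher at 5 days in 11 of 11 tested genes with 6 libraries, with 0 passing and a median log2 fold change of 0.43. Of these, 5 did not overlap (Fasn, Acaca, Acly, Srebf1 and Acss2), 45.5% of the list beside 5.28% of all genes. Srebf1, the transcription factor that drives the pathway, was at 84.8, 76.99 and 86.5 CPM in libraries 2 to 4, against 66.6, 63.6 and 65.7 CPM at 24 h and 81.4 to 84.7 CPM untreated. The 5-day values of Srebf1 lay near the untreated ones and the 24 h values lay below both. Its log2 fold change was 0.34 ± 0.09 (SE). Acaca, the rate-limiting acetyl-CoA carboxylase, was at 206, 141 and 152 CPM against 128, 104 and 115 CPM. Acly, which makes cytosolic acetyl-CoA, was at 565, 436 and 461 CPM against 421, 299 and 360 CPM. Fasn, fatty acid synthase, picked once its values were known, was at 1378, 807 and 802 CPM against 785, 506 and 634 CPM, and Acss2, which activates acetate, also so picked, at 14.2, 7.51 and 9.33 CPM against 5.13, 6.93 and 6.92 CPM. Each of these genes was highest, among libraries 2 to 4, in library 2, except Srebf1. Untreated tumours held 114 to 128 CPM of Acaca, below every 5-day library, so the order of Srebf1 was not shared by Acaca. Untreated values were 390 to 469 CPM for Acly and 632 to 958 CPM for Fasn, ranges that held 5-day libraries 3 and 4. For Acss2 they were 4.68 to 9.18 CPM.

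The same genes were highest in library 1, where fat cell markers were also highest. In library 1 Fasn was at 8253 CPM, Acaca at 638 CPM, Acly at 1269 CPM and Srebf1 at 498 CPM, and the median log2 fold change with 7 libraries was 1.30. Scd1, the desaturase of fatty acids, picked once its values were known, was at 12400 CPM in library 1, 1203 CPM in library 2 and 134 and 55.0 CPM in libraries 3 and 4, against 53.7 to 104 CPM at 24 h. Me1, the malic enzyme that supplies NADPH, also so picked, was at 227, 86.4, 12.6 and 8.10 CPM in libraries 1 to 4, against 7.26 to 10.8 CPM. The 14 fat cell markers summed to 13120, 2029, 205 and 80.7 CPM in libraries 1 to 4, against 87.1, 391 and 250 CPM at 24 h. These sums lay within or below the 24 h range in libraries 3 and 4. Their part in the values of the synthesis genes was not tested. Without 5-day library 2 the median of the synthesis list over 5 libraries was 0.30, and over the alternatives run it was 0.30 to 0.55. The median of the fat cell markers was 1.92 with 6 libraries, with 11 of 11 tested higher, and -1.05 without library 2.

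Subunits of the respiratory chain encoded in the nucleus were higher in 29 of 40 tested genes with 6 libraries (median 0.08), and in 37 of 40 with 7 (median 0.28). With 6 libraries 7 did not overlap and were higher, 17.5% of the list beside 5.28% of all genes. In the same fit 1 did not overlap and was lower, 2.5% beside 6.70% of all genes. Ndufs1, of complex I, was at 78.0, 75.6 and 78.6 CPM in libraries 2 to 4 and 131 CPM in library 1, against 71.2, 52.2 and 46.2 CPM at 24 h and 70.0 to 83.3 CPM untreated. Atp5b, the catalytic subunit of the ATP synthase, was at 1883, 1717 and 2021 CPM and 2324 CPM in library 1, against 1694, 1486 and 1515 CPM. Uqcrc2, of complex III, was at 194, 157 and 165 CPM and 362 CPM in library 1, against 150, 126 and 140 CPM. Without 5-day library 2 the list's median was -0.01, without 24 h libraries 2, 3 and 4 it was 0.03, 0.17 and 0.04, and without 5-day library 3 it was 0.15. The 13 genes encoded in mitochondrial DNA were lower in 13 of 13 with 6 libraries (median -0.40), and none had groups that did not overlap. With 7 libraries 9 were lower and 4 higher (median -0.05). They summed to 30080, 23550 and 18850 CPM in 5-day libraries 2 to 4 and 52640 CPM in library 1, against 20920, 42110 and 33560 CPM at 24 h.

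Cytosolic ribosomal protein genes were lower in 68 of 73 tested genes with 6 libraries and in 70 of 73 with 7 (medians -0.14 and -0.21), and 0 passed. Of these, 11 did not overlap with 6 libraries, all lower, 15.1% of the list beside 6.70% of all genes. Rpsa, of the small subunit, was at 447, 442 and 476 CPM in libraries 2 to 4 and 357 CPM in library 1, against 483, 588 and 601 CPM at 24 h. Rpl10a, of the large subunit, was at 234, 228 and 231 CPM and 189 CPM in library 1, against 245, 295 and 282 CPM. The lowest 24 h value was that of library 2 for both genes, and untreated tumours spanned both groups (453 to 569 CPM for Rpsa and 214 to 269 CPM for Rpl10a). Without 24 h library 3 the list's median was -0.07, and without 24 h library 2 it was -0.23. Many of these genes have processed copies elsewhere in the genome, so their counts are uncertain. Genes of ribosome biogenesis were higher in 22 of 34 with 6 libraries (median 0.04), and lower in 32 of 34 with library 1 (median -0.13). Tsr1, a maturation factor of the small subunit, was at 68.6, 65.6 and 74.5 CPM and 35.3 CPM in library 1, against 63.3, 46.3 and 52.6 CPM, and Nop56, of the nucleolar methylation complex, was at 243, 225 and 275 CPM and 98.2 CPM in library 1, against 281, 279 and 277 CPM.

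**Figure D3:**
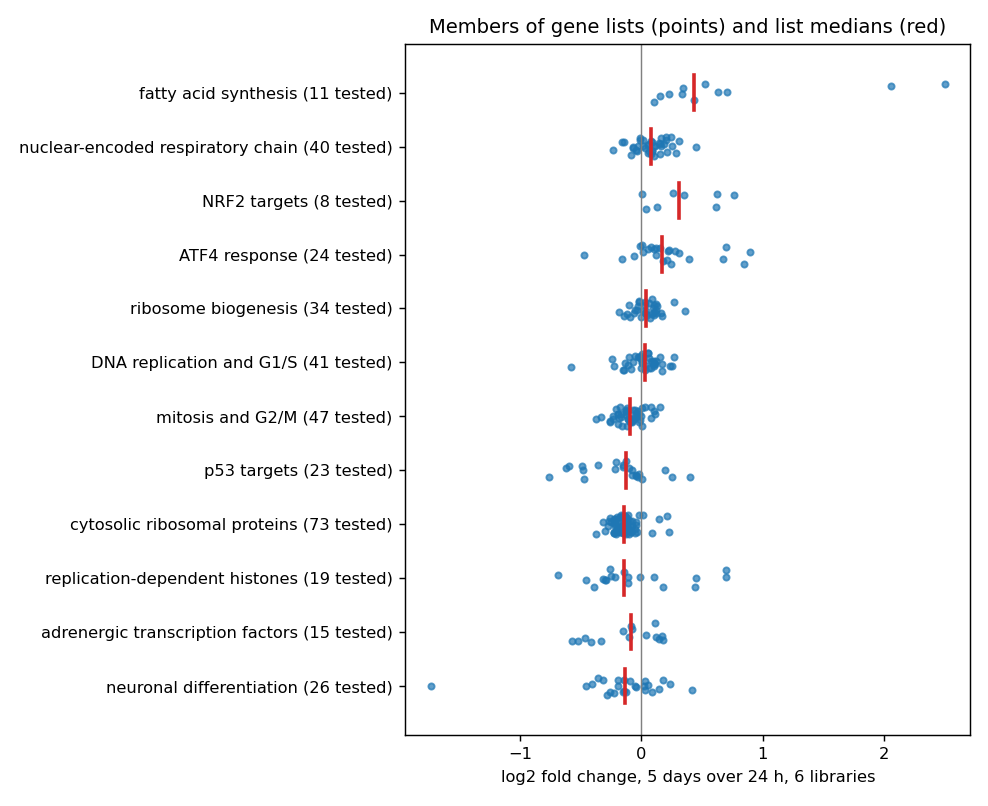
Log2 fold change at 5 days over 24 h, without 5-day library 1, for each tested gene (point) of 12 gene lists, with the list median as a red bar. Medians ran from -0.15 for replication-dependent histones to 0.43 for fatty acid synthesis, and no gene passed the adjusted threshold.

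No gene of the stress lists passed. NRF2 targets, of the response to oxidants, were higher in 8 of 8 tested genes with 6 libraries (median 0.31) and in 7 of 8 with 7 (median 0.97), and the 6-library median was 0.13 without 5-day library 2. ATF4 targets, of the response to amino acid shortage, were higher in 20 of 24 with 6 libraries (median 0.17) and in 16 of 24 with 7 (median 0.12). The 6-library median was 0.09 and 0.10 without 24 h library 4 or 5-day library 4 and 0.25 without 5-day library 2. Trib3, a pseudokinase induced by ATF4, was at 3.25, 4.61 and 4.93 CPM and 10.9 CPM in library 1, against 2.91, 1.91 and 2.25 CPM. Phgdh, the first enzyme of serine synthesis, was at 8.38, 7.68 and 16.7 CPM and 8.93 CPM in library 1, against 7.53, 6.24 and 6.57 CPM. In the unfolded protein response 10 of 19 genes were higher with 6 libraries (median 0.01) and 17 of 19 with 7 (median 0.30). Of hypoxia and glycolysis genes 21 of 31 were higher with 6 libraries (median 0.03) and 25 of 31 with 7 (median 0.27). Aldoa, the glycolytic aldolase, was at 544, 400 and 396 CPM and 1542 CPM in library 1, against 348, 374 and 340 CPM, and Pdk1, which holds back pyruvate oxidation, was at 47.9, 35.9 and 40.5 CPM and 103 CPM in library 1, against 36.1, 26.9 and 23.2 CPM. Nr1d1, a repressor of the circadian clock, picked once its values were known, was at 29.4, 19.97 and 20.96 CPM and 65.3 CPM in library 1, against 15.4, 11.6 and 11.4 CPM. The sources used here do not state the hour of day at which tumours were taken.

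The sympathetic programme was present in every library and lowest in library 1, as the plot of list sums shows. Of 15 adrenergic transcription factors 9 were lower with 6 libraries (median -0.09) and 15 of 15 with 7 (median -0.33). Gata3, which keeps sympathetic neurons alive, was at 55.6, 63.3 and 70.1 CPM in libraries 2 to 4 and 21.3 CPM in library 1, against 95.5, 95.7 and 89.1 CPM at 24 h and 74.2 to 86.2 CPM untreated. The highest 5-day value was also below the lowest untreated value. Its log2 fold change was -0.57 ± 0.10 (SE) with 6 libraries and -0.83 ± 0.37 with 7, with an adjusted p = 0.72 in edgeR and 0.0834 in DESeq2 with 6. Gata3 (ENSMUSG00000015619) is on chromosome 2 of mm10 (9857078 to 9890034, minus strand). Hand2, a factor of the noradrenergic fate, was at 19.3, 20.5 and 19.0 CPM and 4.79 CPM in library 1, against 21.2, 32.6 and 24.4 CPM. Insm1, of the same list, was at 281, 326 and 324 CPM and 74.9 CPM in library 1, against 295, 274 and 252 CPM. Its log2 fold change was 0.18 with 6 libraries and -0.12 with 7. Th, the rate-limiting enzyme of catecholamine synthesis, was at 75.4, 106 and 68.3 CPM and 62.1 CPM in library 1, against 89.8, 85.3 and 198 CPM, and its groups overlapped. Of 26 neuronal genes 17 were lower with 6 libraries (median -0.13) and 24 with 7 (median -0.34). With 6 libraries 3 were lower without overlap, Elavl3, Elavl4 and Ina, 11.5% of the list beside 6.70% of all genes. Elavl4, the neuronal RNA-binding protein HuD, was at 150, 161 and 175 CPM and 42.0 CPM in library 1, against 186, 232 and 245 CPM. Elavl3, its relative HuC, was at 555, 540 and 572 CPM and 170 CPM in library 1, against 601, 760 and 763 CPM. Dcx, of the same list, went the other way, as given above.

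The sums of the interferon, MHC class I and macrophage lists were higher in library 1 than in every other library, and those of 5-day libraries 2 to 4 overlapped the 24 h sums. Of 35 tested interferon genes 12 were higher with 6 libraries (median -0.13), and 40 of 40 with 7 (median 2.21). The list summed to 365, 417 and 146 CPM in libraries 2 to 4 and 5322 CPM in library 1, against 162, 562 and 240 CPM at 24 h. The 6-library median was 0.59 without 24 h library 3, which held the highest sum at 24 h, and 0.16 without 5-day library 4, which held the lowest. Without 24 h libraries 2 or 4 it was -0.51 and -0.38, and without 5-day libraries 2 or 3 it was -0.33 and -0.60. MHC class I genes summed to 512, 415 and 172 CPM and 5534 CPM in library 1, against 197, 504 and 268 CPM. Macrophage markers were higher in 8 of 19 with 6 libraries (median -0.07) and in 20 of 20 with 7 (median 1.76), and summed to 1805, 1740 and 1085 CPM in libraries 2 to 4. The sign of the 6-library median turned without 24 h library 3 (0.04) or 5-day library 4 (0.19), and it was -0.22 without 24 h library 2, -0.29 without 5-day library 2 and -0.11 without 5-day library 3. Cd68, a lysosomal protein of macrophages, was at 46.5, 48.5 and 40.7 CPM and 485 CPM in library 1, against 47.9, 60.8 and 62.4 CPM. Msr1, a scavenger receptor, was at 18.8, 38.6 and 17.6 CPM and 319 CPM in library 1, against 34.7, 48.9 and 46.5 CPM. Ctsz, a lysosomal protease, was at 165, 202 and 168 CPM and 824 CPM in library 1, against 220, 258 and 217 CPM. For these 3 genes the sign of the log2 fold change turned with library 1, from -0.34 to 1.44 for Cd68, from -0.80 to 1.18 for Msr1 and from -0.38 to 0.55 for Ctsz. Cd14, another macrophage marker, was at 15.4, 43.4 and 10.7 CPM and 166 CPM in library 1, against 12.7, 5.55 and 11.9 CPM. Lamp1, of the lysosome list, was at 73.0, 92.7 and 74.3 CPM and 341 CPM in library 1, against 76.3, 53.9 and 52.8 CPM. Both were higher with 6 libraries (log2 fold changes 1.21 and 0.39). Of 18 lipid-associated macrophage genes 10 were higher with 6 libraries (median 0.24) and 17 with 7 (median 1.82). Fabp5 of this list, a fatty acid carrier, was at 109 to 114 CPM and 176 CPM in library 1, against 130 to 144 CPM.

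Markers of T cells summed to 33.7, 22.9 and 17.1 CPM in libraries 2 to 4 and 138 CPM in library 1, against 18.1 to 26.2 CPM at 24 h. Fibroblast and matrix markers summed to 2511, 3893 and 680 CPM and 26600 CPM in library 1, against 2346 to 3530 CPM. Endothelial markers summed to 298, 232 and 89.6 CPM and 1075 CPM in library 1, against 147 to 341 CPM, and markers of Schwann cells and glia to 205, 288 and 205 CPM and 477 CPM in library 1, against 206 to 288 CPM. For T cell, fibroblast and endothelial markers library 4 held the lowest sum of the 6 libraries without library 1. It also had the highest sum of the mitosis list at 5 days. The part of these cells in the gene values above was not tested.

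Markers of adrenal cortex and skeletal muscle differed between the 5-day libraries, and the source of this RNA was not tested. Adrenal cortex markers summed to 1696, 101 and 12.3 CPM in libraries 2 to 4 and 15.9 CPM in library 1, against 10.9 to 12.7 CPM at 24 h. Star, which brings cholesterol into mitochondria for steroid synthesis, was at 557, 43.9 and 10.9 CPM and 6.97 CPM in library 1, against 8.30 to 10.8 CPM. Skeletal muscle markers summed to 870, 13.5 and 294 CPM and 15.9 CPM in library 1, against 8.56 to 10.6 CPM. Myh4, a myosin of fast muscle, was at 107, 4.27 and 31.5 CPM and 0.653 CPM in library 1, against 1.03 to 2.94 CPM, and Des, the muscle filament desmin, at 65.5, 11.1 and 36.6 CPM and 79.3 CPM in library 1, against 9.01 to 10.7 CPM. When 5-day library 3 was left out as well as library 1, 3 genes passed in edgeR (smallest adjusted p = 0.0458, Benjamini-Hochberg), Mybpc1, Mybpc2 and Ttn, all picked once their values were known and all proteins of the muscle sarcomere. Ttn was at 37.6, 1.02 and 19.0 CPM in libraries 2 to 4, against 1.03 to 1.73 CPM at 24 h. These values followed the muscle markers of libraries 2 and 4.

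**Figure D4:**
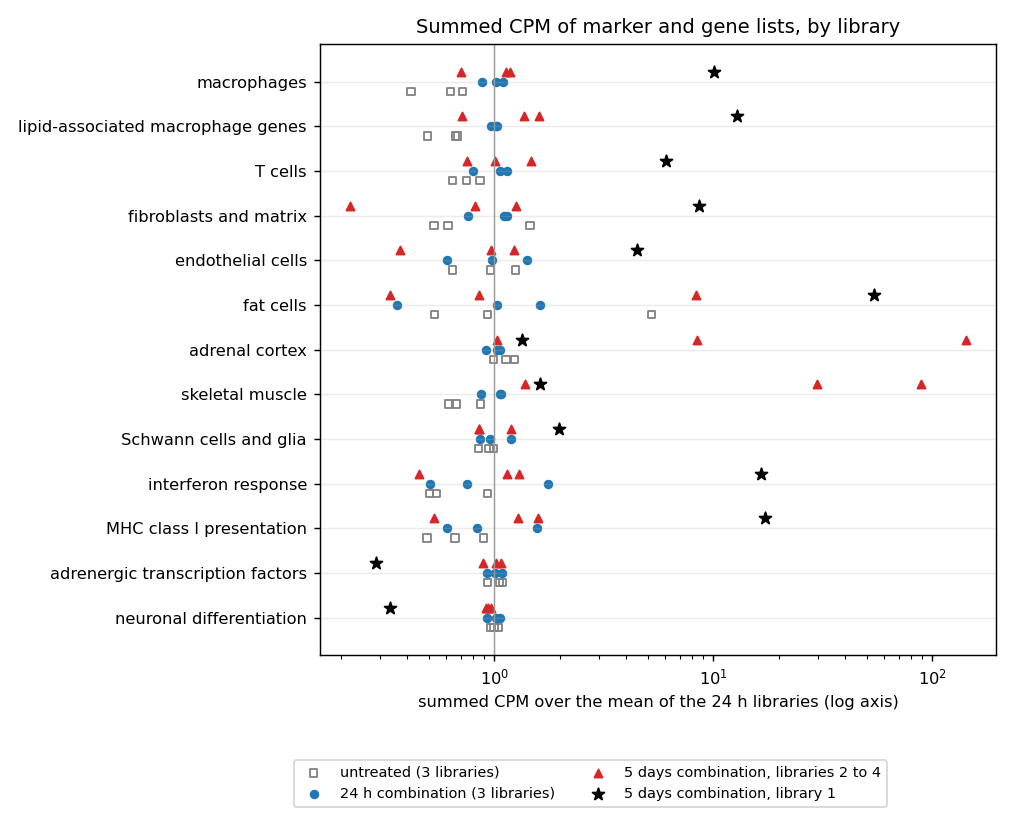
Summed CPM of 13 marker and gene lists in each library over the mean of the 24 h libraries, on a log axis, with circles for 24 h, triangles for 5-day libraries 2 to 4, stars for 5-day library 1 and open squares for untreated. Library 1 lies above every other library for macrophage, fibroblast, fat cell, interferon and MHC class I lists and below them for adrenergic and neuronal genes, while adrenal cortex and skeletal muscle are high in 1 or 2 of the other 5-day libraries.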

How the data were processed

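RNA sequencing of polyadenylated RNA from flash-frozen tumours was deposited by the authors as counts, whole numbers for each Ensembl gene and library. Per the submitters' processing notes, TopHat2 2.1.1, HISAT2 and edgeR were used with build mm10. The sources used here do not name the counter, its annotation, strand setting or treatment of multiple alignments, so overlapping genes on opposite strands cannot be told apart. Of 54446 identifiers, 54409 matched GENCODE M21, and the other 37 held at most 0.0041% of any library's counts. Groups came from the titles, and every pair of treated libraries within a group differed by more than counting noise.

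Counts of 7 libraries, and of 6 without 5-day library 1, were fitted separately in R 4.3.3 with edgeR 4.0.16 (filterByExpr with minimum count 10 and total 15, TMM, robust quasi-likelihood F test, Benjamini-Hochberg adjustment, threshold 0.05). CPM uses TMM-scaled sizes over 7 libraries, with a factor of 0.815 in library 1 at 5 days and 1.011 to 1.048 elsewhere. SE are derived from the F statistic. The procedure was also run on simulated data, with independent noise for each gene and library and no shifts in cell make-up between libraries. That run cannot show which fold changes could have been found in these tumours. Genes were to be named from called genes, and as none passed, by the 10 smallest unadjusted p per direction with 6 libraries (mean of at least 5 CPM, no overlap), up to 3 members per list (at least 2 CPM) and a fixed set. The 28 gene lists, 20 marker lists and the fixed set were chosen with earlier results of these data known. Many genes that the rule names are not given singly, Ptprc and Ddx3y of the fixed set among them. Some lists, such as cholesterol synthesis, BCL2 family and MYC network genes, are not described. List sums use all members, medians the tested ones.

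Alternatives were DESeq2 1.42.0, edgeR with size factors of DESeq2, a test of unfiltered genes or of those averaging at least 5 CPM, untreated libraries added, the replicate number as a block, limma 3.58.1 voom with quality weights, and each library left out. Plots used Python 3.11.15 and matplotlib 3.10.9.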

Additional observations from a re-analysis of the deposited data

Results flagged for a closer look

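In the group of 4 libraries at 5 days, the highest or lowest library was set against the nearest of the others for 22 list sums and 74 of the genes named here. In 39 of these 96 sets the gap, as a share of the whole range, was above Dixon's 95% limit for 4 samples. Chance alone exceeds that limit in about 1 in 20 groups, but that rate does not apply to these sets. The comparison was set up with library 1 also left out, and the lists were chosen with earlier results known. Some genes were picked once their values were known. For genes named for a small p without library 1, libraries 2 to 4 also lie close together by choice. In 36 of the 39 the library was library 1. The sets share libraries and are not independent of each other.

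Library 1 was far above the rest for the sums of fatty acid synthesis (24330 CPM), interferon (5322 CPM), MHC class I (5534 CPM), macrophage (15460 CPM), lipid-associated macrophage (38510 CPM), T cell (138 CPM), fibroblast (26600 CPM) and fat cell (13120 CPM) genes. It was far below the rest for neuronal genes (1858 CPM).

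Among single genes it was far above the rest for Nrip1 (81.9 CPM), Hipk3 (198 CPM), Erbin (186 CPM), Prkcsh (122 CPM) and Mdm2 (144 CPM). The same held for the lipid genes Srebf1 (498 CPM), Acaca (638 CPM), Acly (1269 CPM), Fasn (8253 CPM), Acss2 (53.1 CPM), Scd1 (12400 CPM) and Fabp5 (176 CPM). It also held for Ndufs1 (131 CPM), Aldoa (1542 CPM), Cdkn1a (186 CPM), Ctsz (824 CPM), Cd68 (485 CPM) and Msr1 (319 CPM).

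Library 1 was far below the rest for Mycn (21.6 CPM), Hand2 (4.79 CPM), Dcx (99.3 CPM), Elavl3 (170 CPM), Celf4 (49.0 CPM), Mki67 (344 CPM), Rpl10a (189 CPM), Hist1h2ao (40.9 CPM) and Hist1h2ad (12.8 CPM). Library 2 was far above the rest for the adrenal cortex sum (1696 CPM) and Star (557 CPM), and library 4 for Phgdh (16.7 CPM).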

How the results depend on the processing

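The count of genes past the threshold was 0 in both fits and stayed at 0 under each alternative run except those named here. DESeq2 gave 1 gene with 7 libraries and 7 with 6, and edgeR without a filter gave 2 with 6. With each library left out in turn the counts were 0 with 7 libraries and 0 to 3 with 6. With the replicate number as a block, 0 genes passed in both fits. Correlations of deviations between same-numbered 24 h and 5-day libraries were -0.373, 0.042 and -0.102 for replicates 2, 3 and 4. Those between libraries of unlike number ran from -0.385 to 0.408. With so few libraries these values cannot decide whether a number marks a shared litter or day. Of 72 of the named genes, 71 kept the sign of their log2 fold change with 6 libraries and 63 with 7 under the alternatives run. With 6 libraries the exception was Aurka, at -0.18 to 0.011 with each library left out. Many of these genes were named for a small p or for groups without overlap in the same 6 libraries. Their kept sign was therefore largely set by the choice and is not a result. With 7 libraries, values under the block were 0.10 for Mycn, -0.49 for Cdkn1a, -0.55 for Sesn2, -0.38 for Ctsz, -0.33 for Cd68, -0.86 for Msr1 and -0.093 for Mdm2. With voom and quality weights they were 0.10 for Mycn, -0.64 for Cdkn1a, -0.77 for Sesn2, -0.29 for Ctsz, -0.30 for Cd68, -0.69 for Msr1 and -0.11 for Mdm2. With each of the 7 libraries left out they were -0.38 to 0.086 for Mycn, -0.046 to 0.27 for Atr, -0.49 to 0.97 for Cdkn1a, -0.47 to 0.32 for Sesn2, -0.38 to 0.79 for Ctsz, -0.34 to 1.76 for Cd68, -0.80 to 1.54 for Msr1, -0.098 to 0.087 for Mdm2 and -0.084 to 0.27 for Prim2. The weight of library 1 in voom was 0.0769. Among 34 lists with at least 5 tested genes, the medians of fatty acid synthesis, mitosis, ribosomal protein, adrenergic factor, neuronal, NRF2, ATF4 and hypoxia genes kept their sign in both fits under the alternatives run. Genes under 0.512 to 0.653 CPM were below the limit of this depth.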
